A study of Mus musculus with 12 samples.

Results

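The 9 genes described here, *Foxa1*, *Foxa2*, *Foxa3*, *Cebpa*, *Cebpb*, *Onecut1*, *Onecut2*, *Prox1* and *Gata4*, encode transcription factors known for establishing and keeping hepatocyte identity. They were chosen by name, and all 9 are among the 20093 genes listed in both deposited count tables. Bulk RNA-seq was carried out on 12 liver samples of male C57BL/6N mice that were HuR flox/flox, with *Elavl1*, the gene of the RNA-binding protein HuR, floxed. The 4 groups of 3 livers were chow WT, chow HuRHep-/-, HFCF WT and HFCF HuRHep-/-. According to the labels, floxed males aged 4 to 6 months received AAV8-Tbg-Cre, a virus with Cre under a hepatocyte promoter, to give HuRHep-/-, whereas the mice called WT received AAV8-Tbg-null and so carried the same floxed allele. The HFCF diet, with 40 kcal% fat, 2% cholesterol and 20 kcal% fructose, was fed for 16 weeks. For its animal experiments the paper instead describes an albumin-Cre cross and younger mice. It gives no Cre driver or age separately for the sequenced livers, and gene counts cannot tell which of the descriptions applies. Whole liver was sequenced, so a transcript made by hepatocytes and by other liver cells was read as 1 value, and fewer cells of a type cannot be told apart from less RNA per cell.

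FOXA proteins are pioneer factors that bind closed chromatin at liver enhancers before other factors arrive, and FOXA1 and FOXA2 act early in liver development. ONECUT1, also called HNF6, and ONECUT2 are cut-homeodomain proteins that guide the choice between hepatocyte and bile duct fate. C/EBPα drives metabolic genes of the mature hepatocyte, C/EBPβ is prominent in the acute-phase response and regeneration, PROX1 is a homeodomain factor of hepatocytes and of lymphatic endothelium, and GATA4 works beside FOXA in liver development and is also made by endothelial and stellate cells. HuR binds AU-rich and U-rich elements of RNA, mostly in 3′ untranslated regions, and is best known for stabilizing its targets.

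The transcript of the targeted gene went against the labels. *Elavl1* (ENSMUSG00000040028) had 30.9, 29.3 and 31.0 CPM (counts relative to library size, scaled by TMM over the 12 libraries) in chow WT and 42.8, 39.2 and 38.8 in the chow libraries labelled HuRHep-/-. In HFCF the CPM of *Elavl1* was 23.9, 24.2 and 27.0 in WT and 32.4, 32.2 and 34.2 in the libraries labelled HuRHep-/-. *Elavl1* was thus higher in the libraries labelled HuRHep-/- on both diets (log2 fold change 0.41, adjusted p = 0.0219 in chow, and 0.38, adjusted p = 0.0327 in HFCF, limma with Benjamini-Hochberg adjustment over all genes tested). Exons are not separated in the counts, so the deletion itself could not be read, the study's own PCR and protein measurements of HuR were not analysed here, and every genotype direction below rests on the labels. Libraries held between 30071731 and 35949203 counts. None of the hepatocyte markers listed in both tables (22 of 23 genes) was at 0, and their summed level ran from 82250 to 151400 CPM.

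Sequences are shown for *Foxa2* and *Onecut1*, because both hold the AU-rich motif UAUUUAU in the 3′ untranslated region and because their levels moved together from liver to liver. The motif was searched on the transcript strand in the longest annotated 3′ untranslated region (GENCODE M21, GRCm38). UAUUUAU was present in 28.6% of the 16286 protein-coding genes listed in both tables that have one, and in 3 of the 9 members (*Foxa2*, *Onecut1* and *Onecut2*). Windows of 25 bases around each match of *Foxa2* (chromosome 2, minus strand) and *Onecut1* (chromosome 9, plus strand) are given with the motif in capitals.
Foxa2 chr2:148042943-148042967: ugcgugcuuUAUUUAUggcuuauaa
Onecut1 chr9:74889720-74889744: aacaaguggUAUUUAUaguccaaag
Onecut1 chr9:74890488-74890512: caggacuauUAUUUAUgacucuuga
The *Foxa2* match begins at base 556 of 637 of its untranslated region, and the *Onecut1* matches begin at bases 131 and 899 of 2183. A match describes letters and is no evidence of binding.

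Of the members, 7 had promoter windows in the RefSeq table (GRCm38.p6, 10 windows reaching 250 bases before and 50 after a start site) that could be used here, and *Gata4* had none. The windows were searched on both strands for ATCAAT, a core of ONECUT recognition. It was in 7.54% of the 32851 windows of all genes and in 1 of the 10 windows of the members, that of the outermost *Foxa2* start. The 250 bases before that start are shown because ONECUT1 is known to bind the *Foxa2* promoter. Whether ONECUT1 bound it or acted on *Foxa2* in these livers was not tested. The bases are given for their letters alone. They lie at chr2:148046970-148047219, are written along the minus strand on which *Foxa2* is read, and hold the motif in capitals as its reverse complement, 213 to 208 bases before the start.
Foxa2 promoter: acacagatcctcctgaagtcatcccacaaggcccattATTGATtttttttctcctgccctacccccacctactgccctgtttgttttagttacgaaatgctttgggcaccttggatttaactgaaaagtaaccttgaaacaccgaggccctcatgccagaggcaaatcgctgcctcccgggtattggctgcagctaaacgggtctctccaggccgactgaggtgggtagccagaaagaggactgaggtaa
The FOXA core TGTTTAC was in 3.65% of all windows and in 1 of the 10, that of *Foxa1*. CCAAT was in 4 of the 10 windows (37.4% of all) and TATAAA in 5 (13.6% of all).

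Per length of exon, the C/EBP genes were the most abundant of the 9 and *Onecut1* the least. Averaged over 12 libraries, the level was 181.9 ± 25.8 CPM per kb (SD, n = 12) for *Cebpa* and 113.2 ± 25.0 for *Cebpb*, which place above 98.1% and 96.9% of the 14512 tested genes with a known length. *Foxa3* followed with 21.9 ± 7.24 CPM per kb. *Prox1* and *Foxa2* stood at nearly the same level, 8.25 ± 1.31 and 8.25 ± 2.33 CPM per kb, and did not differ beyond their spread, since *Prox1* was the higher in 7 of 12 livers. *Onecut2* (5.28 ± 0.929), *Foxa1* (4.09 ± 0.804), *Gata4* (3.03 ± 0.691) and *Onecut1* (2.89 ± 1.71 CPM per kb) made up the lower end. *Foxa1* lay above *Gata4* in 9 of 12 livers and *Gata4* above *Onecut1* in 9 of 12, so these neighbours overlapped. *Cebpb* lay above *Foxa3* in all 12 libraries without overlap of their ranges. The plot of levels shows these steps for each liver.

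**Figure D1:**
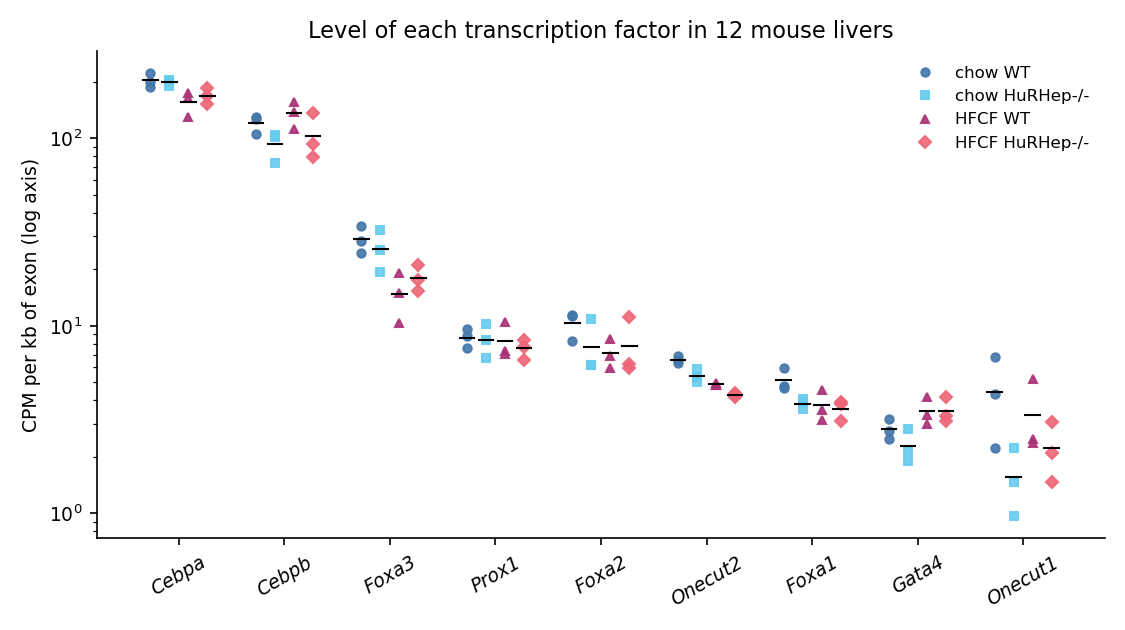
Level of each factor in CPM per kb of exon (log axis), with 1 point per liver, 4 groups of 3 livers by colour and shape, and a short line at each group mean. *Cebpa* and *Cebpb* lie above all other members in every liver, *Onecut1* has the widest groups, and those of *Onecut2* are narrow.

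The first question was whether the factors differed between livers labelled HuRHep-/- and WT within a diet. In chow, all 9 members had lower estimates in the livers labelled HuRHep-/-, with a median log2 fold change of -0.30 beside 0.01 over all genes tested. No member was called (adjusted p of at most 0.05 by limma), beside 4.22% of the 13526 genes tested, and 4 members (*Foxa1*, *Cebpb*, *Onecut1* and *Onecut2*) had an unadjusted p under 0.05, as had 3184 of all genes tested. With voom weights no member was called in chow or HFCF either. These background shares rest on single libraries, since leaving out 1 library gave between 9 (without chow HuRHep-/- replicate 2) and 535 called genes in chow against 571, and between 28 (without HFCF HuRHep-/- replicate 1) and 1276 in HFCF against 978. In HFCF, 6 estimates were lower and 3 higher, the median was -0.06 beside -0.0011 over all genes, and again no member was called, beside 6.84% of 14295 genes. Here 1 member, *Onecut2*, had an unadjusted p under 0.05, as had 4221 of all genes tested. The 3 values of livers labelled HuRHep-/- all lay below the 3 WT values for 3 members in chow (*Foxa1*, *Cebpb* and *Onecut2*), beside 14.2% of genes tested, and for *Onecut2* alone in HFCF, beside 19.2%. Averaged over the diets in a fit of all 12 libraries, 2 of the 9 were called, both lower, beside 19.2% of 14535 genes called in either direction. Leaving out 1 library gave between 1857 (without chow HuRHep-/- replicate 2) and 2950 (without chow HuRHep-/- replicate 3) called genes for this average, against 2788. In the same chow livers the summed hepatocyte markers were 110900 to 116900 CPM in those labelled HuRHep-/- and 125600 to 151400 in WT, and the summed Kupffer cell and macrophage markers 341.6 to 500.3 against 257.5 to 338.0, and their part in these differences was not tested. Gene by gene, 14 of the 22 hepatocyte markers had lower and 8 higher estimates in chow, with a median of -0.06 and none called by limma (2 at an unadjusted p under 0.05). For genotype in HFCF, 3 of the 22 were called, all lower, beside 6.84% of all genes. Averaged over the diets 4 were called, all lower (median -0.16), beside 19.2%.

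*Onecut2* was more even than *Onecut1*. Its CPM was 106, 103.2 and 112.2 in chow WT against 81.7, 86.7 and 95.4 in chow livers labelled HuRHep-/-. In HFCF the CPM of *Onecut2* was 78.3, 78.0 and 80.7 in WT against 71.3, 68.0 and 68.1. After TMM scaling the groups did not overlap on either diet. The 4 groups formed 4 separate steps, although 1 HFCF WT liver (80.7) came close to the lowest chow liver labelled HuRHep-/- (81.7). These steps rest on the TMM factors, which ran from 0.882 to 0.936 in chow WT and 0.9145 to 0.9895 in chow livers labelled HuRHep-/-. In HFCF the factors were 0.974 to 1.05 in WT and 1.11 to 1.13 in livers labelled HuRHep-/-. Raw counts of *Onecut2* overlapped in HFCF, at 2541 to 2966 in WT and 2529 to 2859 in livers labelled HuRHep-/-, with unlike library totals. The log2 fold change of *Onecut2* was -0.28 in chow (standard error 0.073, adjusted p = 0.0745), -0.21 in HFCF (standard error 0.055, adjusted p = 0.0636) and -0.24 averaged over the diets (95% interval -0.34 to -0.14, adjusted p = 0.00449), a level that fell by 15.3%. The averaged call held without each library in turn (adjusted p between 0.00214 and 0.0147). Without chow HuRHep-/- replicate 3 the chow difference was also called (log2 fold change -0.34, adjusted p = 0.0491). With a 3′ untranslated region of 14356 bases, longer than that of 99.9% of genes, *Onecut2* held 6 UAUUUAU and 38 AUUUA motifs.

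*Onecut1* (ENSMUSG00000043013, chromosome 9, 74861921 to 74891781) had the largest estimate and the widest spread. Its CPM was 9.18, 28.0 and 17.8 in chow WT and 9.22, 3.96 and 6.00 in chow livers labelled HuRHep-/-. In HFCF *Onecut1* had 21.3, 9.74 and 10.2 CPM in WT and 12.7, 8.66 and 6.01 in livers labelled HuRHep-/-. Groups overlapped on both diets, in chow through a single WT liver at 9.18. The log2 fold change was -1.45 in chow (95% interval -2.44 to -0.46, adjusted p = 0.0976), -0.58 in HFCF (-1.44 to 0.28, adjusted p = 0.327) and -1.01 averaged over the diets (-1.70 to -0.32, adjusted p = 0.0432), and of the members only *Onecut1* met a fold of 1.5 in addition to the adjusted p in that average, beside 5.07% of genes. The averaged call was lost without chow WT replicate 2 (-0.82, adjusted p = 0.0823) or 3 (-0.98, adjusted p = 0.0834), chow HuRHep-/- replicate 2 (-0.86, adjusted p = 0.105) or 3 (-1.01, adjusted p = 0.0635), HFCF WT replicate 1 (-0.83, adjusted p = 0.0908), or HFCF HuRHep-/- replicate 2 (-1.02, adjusted p = 0.0749) or 3 (-0.89, adjusted p = 0.0906). *Gm20649*, a lincRNA on the same strand, overlaps 52.8% of the exon bases of *Onecut1* and had between 0 and 175 counts per library, and counting both together gave -1.04 (adjusted p = 0.0502). Upper-quartile factors (adjusted p = 0.0508) and voom weights (adjusted p = 0.0560) also ended the call. The plot of the ONECUT pair shows both patterns.

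**Figure D2:**
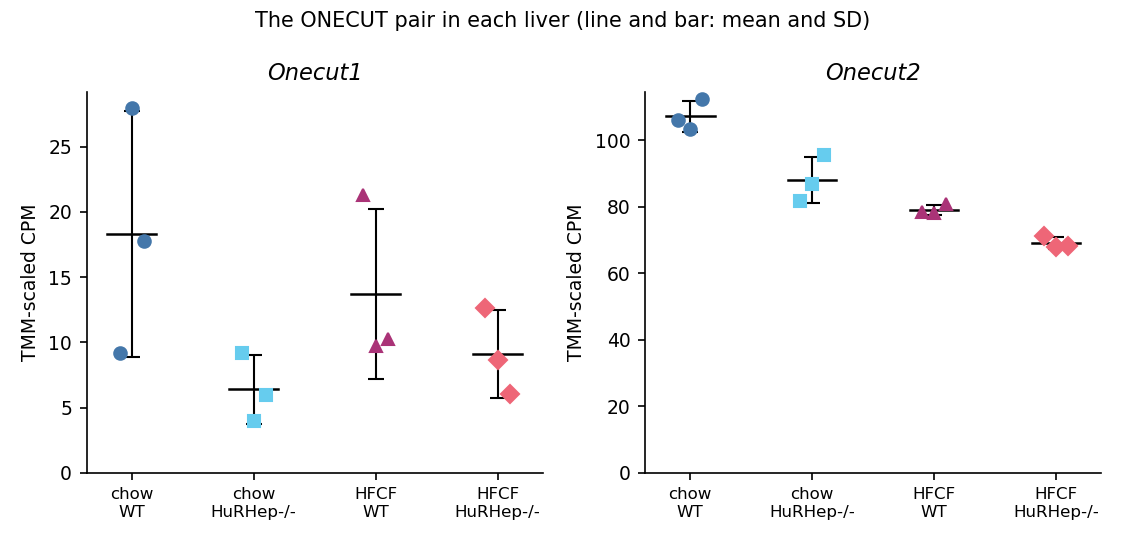
TMM-scaled CPM of *Onecut1* and *Onecut2* in each liver, with group mean and SD (n = 3 per group), both axes from 0. *Onecut2* steps down from 107.1 CPM in chow WT to 69.1 in HFCF HuRHep-/- with little spread, and the groups of *Onecut1* overlap.

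Among the FOXA genes, *Foxa1* was the nearest to a difference. *Foxa1* (ENSMUSG00000035451, chromosome 12, 57540628 to 57546916) had 15.9, 15.4 and 19.9 CPM in chow WT and 13.0, 13.5 and 11.9 in chow livers labelled HuRHep-/-, without overlap. Its log2 fold change was -0.40 (95% interval -0.67 to -0.14, adjusted p = 0.0918) in chow and -0.06 (-0.44 to 0.31, adjusted p = 0.823) in HFCF, where groups overlapped. *Foxa2* (ENSMUSG00000037025, chromosome 2, 148042877 to 148046969) had 1 liver well above the other two in both groups labelled HuRHep-/-. The CPM of *Foxa2* was 25.7, 14.7 and 14.6 in chow livers labelled HuRHep-/- and 26.2, 14.8 and 14.1 in HFCF livers labelled HuRHep-/-, against 19.7, 27.2 and 26.9 in chow WT and 20.2, 16.4 and 14.1 in HFCF WT. All these groups overlapped, and the log2 fold changes were -0.46 (-0.995 to 0.08) in chow and 0.06 (-0.53 to 0.65) in HFCF. *Foxa3* (ENSMUSG00000040891, chromosome 7, 19013284 to 19023538) had -0.19 (-0.62 to 0.25) and 0.29 (-0.22 to 0.81), with overlapping groups on both diets.

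*Cebpa* and *Cebpb* had different estimates, but their 95% intervals overlapped on both diets and the difference between the genes was not tested. *Cebpa* (ENSMUSG00000034957, chromosome 7, 35119293 to 35121928) had a log2 fold change of -0.02 in chow (95% interval -0.21 to 0.17) and 0.10 in HFCF (-0.20 to 0.40), the narrowest chow interval of the FOXA and C/EBP genes. *Cebpb* (ENSMUSG00000056501, chromosome 2, 167688915 to 167690418) had 159.2, 190.7 and 196.3 CPM in chow WT and 110.6, 152.8 and 157.5 in chow livers labelled HuRHep-/-, with the groups just apart. In HFCF its CPM was 169.3, 209.0 and 233.9 in WT and 118.9, 140.5 and 204.8 in livers labelled HuRHep-/-, with overlap through the last of these livers. The log2 fold change of *Cebpb* was -0.38 in chow (adjusted p = 0.168), -0.44 in HFCF (adjusted p = 0.199) and -0.41 averaged (95% interval -0.71 to -0.10, adjusted p = 0.0615). The average was called without HFCF WT replicate 1 (-0.47, adjusted p = 0.0485) and without HFCF HuRHep-/- replicate 3 (-0.53, adjusted p = 0.0138). *Tmem189* overlaps 20.7% of the exon bases of *Cebpb* on the opposite strand, and the reads were counted by strand.

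*Prox1* (ENSMUSG00000010175, chromosome 1, 190118035 to 190170714) had log2 fold changes of -0.05 in chow (95% interval -0.40 to 0.31) and -0.13 in HFCF (-0.52 to 0.25). *Gata4* (ENSMUSG00000021944, chromosome 14, 63198922 to 63271692) had -0.30 in chow (-0.68 to 0.08) and -0.01 in HFCF (-0.38 to 0.37). Groups overlapped for both genes on both diets. With DEG criteria that add a minimum fold of 1.5 and a minimum of 10 counts for each group, no member was called in chow or in HFCF, beside 2.23% and 3.66% of genes. The intervals in the plot of genotype differences show how large a difference each gene could still have.

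**Figure D3:**
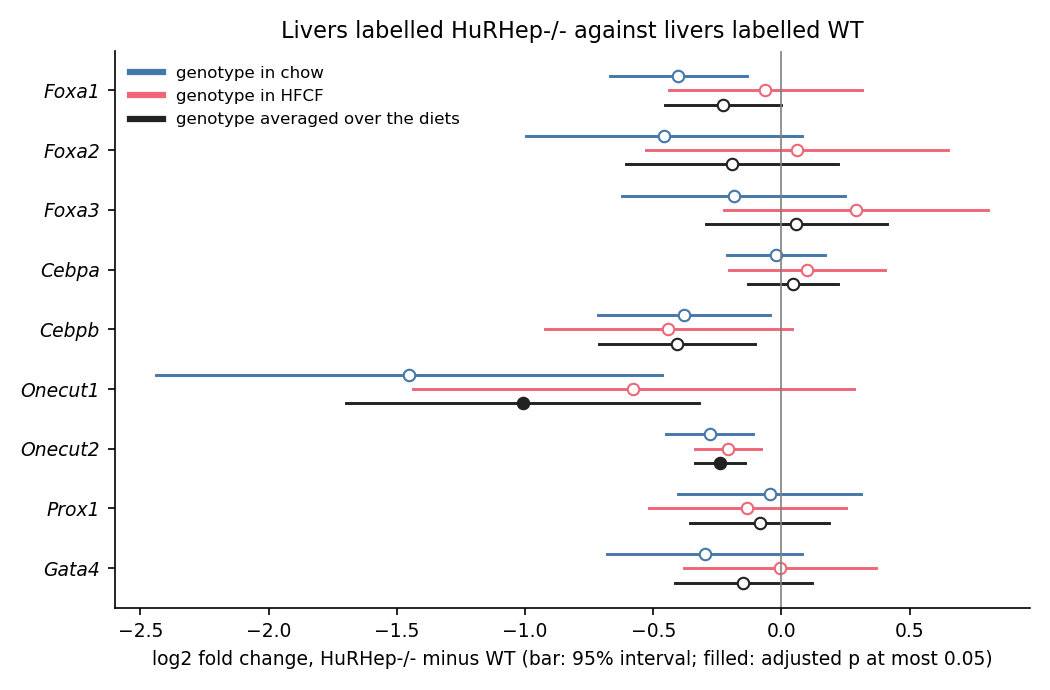
Log2 fold change of each member between livers labelled HuRHep-/- and WT in chow, in HFCF and averaged over the diets, with 95% intervals; filled points have an adjusted p of at most 0.05. All 9 chow points lie below 0, and only the averages of *Onecut1* and *Onecut2* are filled.

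An interaction term in the fit of 12 libraries tested whether chow and HFCF livers differed in the genotype effect. No member was called, and no member had an unadjusted p under 0.05. Over all genes 0 of 14535 were called by limma (0%), 2084 had an unadjusted p under 0.05, and voom weights called 1 gene. Leaving out 1 library called up to 41 genes (without HFCF WT replicate 3), and no member was among them. The largest estimates, HFCF minus chow, were 0.90 for *Onecut1* (95% interval -0.48 to 2.27), 0.54 for *Foxa2* (-0.29 to 1.37) and 0.50 for *Foxa3* (-0.21 to 1.21). The narrowest was that of *Onecut2*, 0.09 (-0.10 to 0.29). All 9 intervals include 0, and only those of *Cebpa* and *Onecut2* exclude a difference of 1.5-fold in either direction.

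The next question was how the factors stood in HFCF livers compared with chow livers. Each diet has its own count table, so diet cannot be told apart from whatever else differs between the tables. In WT, 4 of the 9 members were called, all lower in HFCF (*Foxa1*, *Foxa3*, *Cebpa* and *Onecut2*), beside 24.2% of 14535 genes called in either direction. In livers labelled HuRHep-/-, 2 of the 9 were called, *Onecut2* lower and *Gata4* higher, beside 38.9%. These shares also depend on single libraries. Leaving out 1 library gave between 1990 (without chow WT replicate 1) and 3965 (without HFCF WT replicate 2) called genes in WT, against 3514. In livers labelled HuRHep-/- it gave between 4034 (without HFCF HuRHep-/- replicate 1) and 4788 (without chow HuRHep-/- replicate 1), against 5650. The median log2 fold change of the 9 was -0.39 in WT and -0.09 in livers labelled HuRHep-/-, beside 0.01 and 0.0027 over all genes. With the fold of 1.5 added, only *Foxa3* remained called in WT (9.41% of genes) and only *Gata4* in livers labelled HuRHep-/- (19.1%).

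*Foxa3*, the most abundant FOXA gene in these livers, had the largest diet estimate in WT. Its CPM was 57.9, 49.7 and 69.6 in chow WT and 21.2, 38.9 and 30.5 in HFCF WT, without overlap. The log2 fold change was -0.997 (95% interval -1.50 to -0.50, adjusted p = 0.00997), a level that fell by 49.9%, and the call held without each of the 6 libraries in turn (adjusted p between 0.00422 and 0.0418). In livers labelled HuRHep-/- the CPM of *Foxa3* was 39.6, 51.4 and 65.9 in chow and 31.1, 36.0 and 42.7 in HFCF, with overlap, and the log2 fold change was -0.50 (-0.9965 to 0.0034, adjusted p = 0.106), or -0.69 (adjusted p = 0.0457) without chow HuRHep-/- replicate 1. The difference between these 2 diet effects was not called (0.50, adjusted p = 0.503).

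*Onecut2* (ENSMUSG00000045991) was the one member called for diet in both genotypes, by -0.44 (95% interval -0.58 to -0.30, adjusted p = 0.00114) in WT and -0.35 (-0.48 to -0.21, adjusted p = 0.00192) in livers labelled HuRHep-/-. Both calls held without each library in turn, with adjusted p up to 0.00645 in WT and 0.00821 in livers labelled HuRHep-/-. *Foxa1* and *Cebpa* were called in WT alone, by -0.46 (adjusted p = 0.0417) and -0.39 (adjusted p = 0.0279). For *Cebpa* the CPM was 588.7, 493.0 and 528.6 in chow WT and 460.2, 430.7 and 344.1 in HFCF WT, without overlap. In livers labelled HuRHep-/- the diet estimate of *Cebpa* was -0.25 (-0.49 to 1e-04, adjusted p = 0.104) and that of *Foxa1* -0.09 (-0.41 to 0.23, adjusted p = 0.635), and the interaction was not called for either (adjusted p = 0.720 and 0.446). The *Foxa1* call was lost without chow WT replicate 1 (-0.50, adjusted p = 0.0721) or 3 (-0.34, adjusted p = 0.156) and without HFCF WT replicate 2 (-0.34, adjusted p = 0.118) or 3 (-0.42, adjusted p = 0.115). That of *Cebpa* was lost without chow WT replicate 1 (-0.32, adjusted p = 0.108) or 3 (-0.40, adjusted p = 0.0657) and without HFCF WT replicate 3 (-0.27, adjusted p = 0.102).

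*Gata4* was the one member called higher with the diet, and this call was in livers labelled HuRHep-/-. Its CPM was 11.0, 8.39 and 7.38 in chow livers labelled HuRHep-/- and 16.2, 12.9 and 12.1 in HFCF livers labelled HuRHep-/-, without overlap. The log2 fold change of *Gata4* was 0.63 (95% interval 0.25 to 1.01, adjusted p = 0.0140). Without chow HuRHep-/- replicate 3 it was 0.50 (adjusted p = 0.0586) and without HFCF HuRHep-/- replicate 1 it was 0.51 (adjusted p = 0.0615). In WT the CPM of *Gata4* was 10.7, 12.4 and 9.77 in chow and 16.3, 13.1 and 11.7 in HFCF, which overlap, with an estimate of 0.31 (-0.06 to 0.69, adjusted p = 0.203). The interaction for *Gata4* was not called (0.32, adjusted p = 0.582). *Foxa2*, *Cebpb*, *Onecut1* and *Prox1* were not called for diet in either genotype, with estimates between -0.54 and 0.53.

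**Figure D4:**
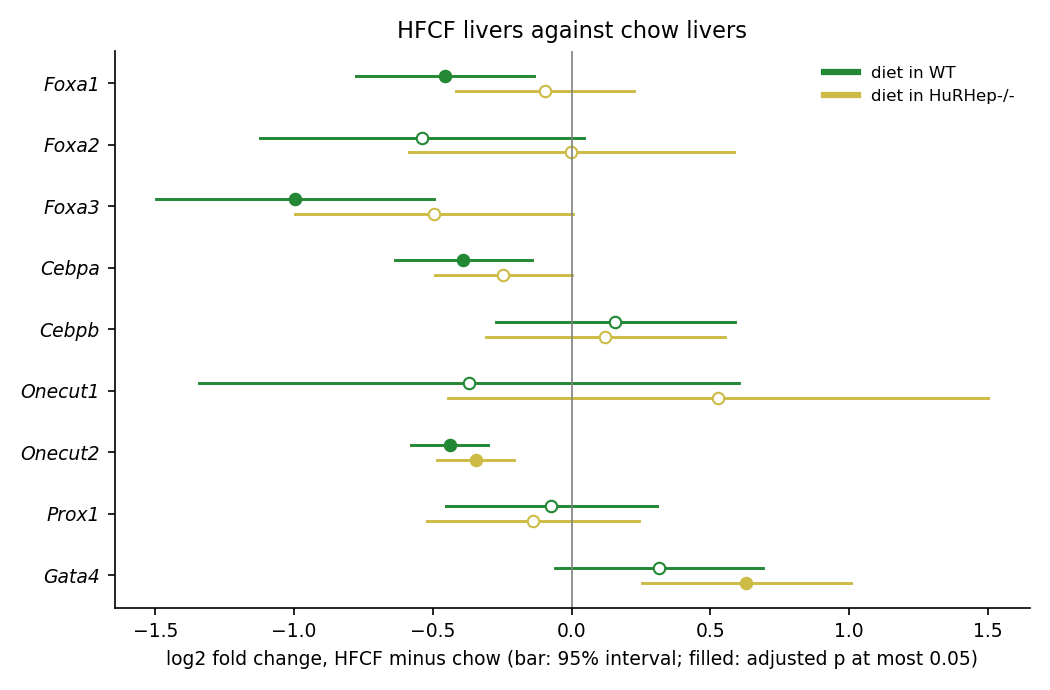
Log2 fold change of each member between HFCF and chow livers in WT and in HuRHep-/-, with 95% intervals; filled points have an adjusted p of at most 0.05. *Foxa3* has the lowest point in WT (-0.997) and *Gata4* the highest in HuRHep-/- (0.63).

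Markers of cell types are given beside the diet results, and their counts stand beside the 24.2% of all genes called in WT and the 38.9% in livers labelled HuRHep-/-. The summed level of the hepatocyte markers was 125600 to 151400 CPM in chow WT, 110900 to 116900 in chow livers labelled HuRHep-/-, 89300 to 102100 in HFCF WT and 82250 to 89320 in HFCF livers labelled HuRHep-/-, and 12 of the 22 tested fell with the diet in WT and 15 in livers labelled HuRHep-/- (median log2 fold changes -0.43 and -0.44). Stellate cell markers, the cells that also make GATA4, summed to 288.7 to 328.7 CPM in chow WT, 229.8 to 341.1 in chow livers labelled HuRHep-/-, 337.3 to 634.4 in HFCF WT and 605.8 to 720.4 in HFCF livers labelled HuRHep-/-, and 5 of 13 rose with the diet in WT and 13 of 13 in livers labelled HuRHep-/-. Sinusoidal endothelial markers summed to 192.1 to 266.2 CPM over all livers, and 1 of 13 rose in WT and 3 of 13 in livers labelled HuRHep-/-. Of the 8 endothelial genes known to depend on GATA4, none was called in WT by limma (1 at an unadjusted p under 0.05) and 1 rose in livers labelled HuRHep-/-. The part of these cells in the *Gata4*, *Foxa3* and *Cebpa* results was not tested.

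Markers of cells that share other members are given for the same reason. Cholangiocytes also make FOXA2 and ONECUT1, and their 9 markers summed to 49.6 to 94.9 CPM in chow WT, 60.5 to 96.7 in chow livers labelled HuRHep-/-, 56.3 to 106 in HFCF WT and 154.4 to 270.3 in HFCF livers labelled HuRHep-/-. Of the 8 tested, 3 rose with the genotype in HFCF, beside 6.84% of all genes called (*Krt19* by 1.32, adjusted p = 0.0248). With the diet none was called by limma in WT, and 7 rose in livers labelled HuRHep-/-, beside 38.9% of all genes. *Foxa2* and *Onecut1* were called neither for genotype in HFCF nor for diet. Lymphatic endothelial cells also make PROX1, and their 5 markers summed to 40.9 to 43.1 CPM in chow WT, 31.4 to 43.3 in chow livers labelled HuRHep-/-, 38.3 to 58.3 in HFCF WT and 62.7 to 69.7 in HFCF livers labelled HuRHep-/-. Of these 5, 1 rose with the genotype in HFCF, and with the diet none was called by limma in WT and 3 rose in livers labelled HuRHep-/-. *Prox1* was called in none of the comparisons. The part of cholangiocytes and lymphatic endothelium in the results of the members was not tested. Kupffer cell and macrophage markers summed to 257.5 to 338.0 CPM in chow WT, 341.6 to 500.3 in chow livers labelled HuRHep-/-, 392.1 to 674.7 in HFCF WT and 663.9 to 918.8 in HFCF livers labelled HuRHep-/-, and 7 of 14 rose with the diet in WT and 10 in livers labelled HuRHep-/-. The 7 listed neutrophil markers summed to 1.98 to 6.01 CPM over all livers. None of the listed markers was at 0 in all libraries, and *Tf* and *Ly6g* were not analysed here.

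Within a group, livers differed far more in some factors than in others. The residual SD of log2 CPM around the group means was 0.65 for *Onecut1*, larger than that of 98.4% of the genes nearest in level, 0.39 for *Foxa2* (96.2%) and 0.33 for *Foxa3* (95.6%). At the other end *Onecut2* had 0.07, larger than 20.2% of its nearest genes, and *Cebpa* had 0.15 (67.5%). The deviations of *Foxa2*, *Gata4* and *Onecut1* from their group means ran together over the 12 livers. Pearson's r was 0.847 for *Foxa2* with *Gata4* (Spearman's rho 0.699), 0.816 for *Foxa2* with *Onecut1* (rho 0.804) and 0.727 for *Onecut1* with *Gata4* (rho 0.476). *Foxa3* and *Cebpb* ran against *Gata4*, with r of -0.864 for *Foxa3* with *Gata4* (rho -0.804) and -0.796 for *Cebpb* with *Gata4* (rho -0.867), while *Foxa3* and *Cebpb* ran together (r 0.709, rho 0.671). Leaving out the 2 livers farthest from the median of the gene named first gave r of 0.713, 0.807, 0.788, -0.933, -0.651 and 0.740 for these pairs in turn. With *Onecut1* the relation of *Cebpb* was weaker (r -0.507, and -0.089 in chow alone), and *Cebpa* ran against *Cebpb* (r -0.766, rho -0.825, and -0.760 without 2 livers). The signs of the first 6 of these pairs were the same in the chow livers and in the HFCF livers taken alone, as in r of 0.815 and 0.829 for *Foxa2* with *Onecut1* and -0.980 and -0.763 for *Foxa3* with *Gata4*. They were picked among 36 pairs, given as descriptions over 12 livers that share libraries and scaling.

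The pattern was clearest in 3 livers, chow HuRHep-/- replicate 1, HFCF WT replicate 1 and HFCF HuRHep-/- replicate 1. There *Foxa2* lay 0.54, 0.27 and 0.57 above its group mean on the log2 scale, *Onecut1* 0.61, 0.73 and 0.54 and *Gata4* 0.33, 0.26 and 0.25. In the same livers *Foxa3* deviated by -0.37, -0.47 and -0.22 and *Cebpb* by -0.32, -0.26 and -0.34. In chow WT replicate 1 *Foxa2* (-0.30) and *Onecut1* (-0.85) lay below their group means instead, *Gata4* (-0.03) and *Foxa3* (-0.01) were near them, and *Cebpb* was low there too (-0.19). *Onecut2*, whose deviations stayed between -0.10 and 0.12, deviated least. No label marks these livers as a batch.

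**Figure D5:**
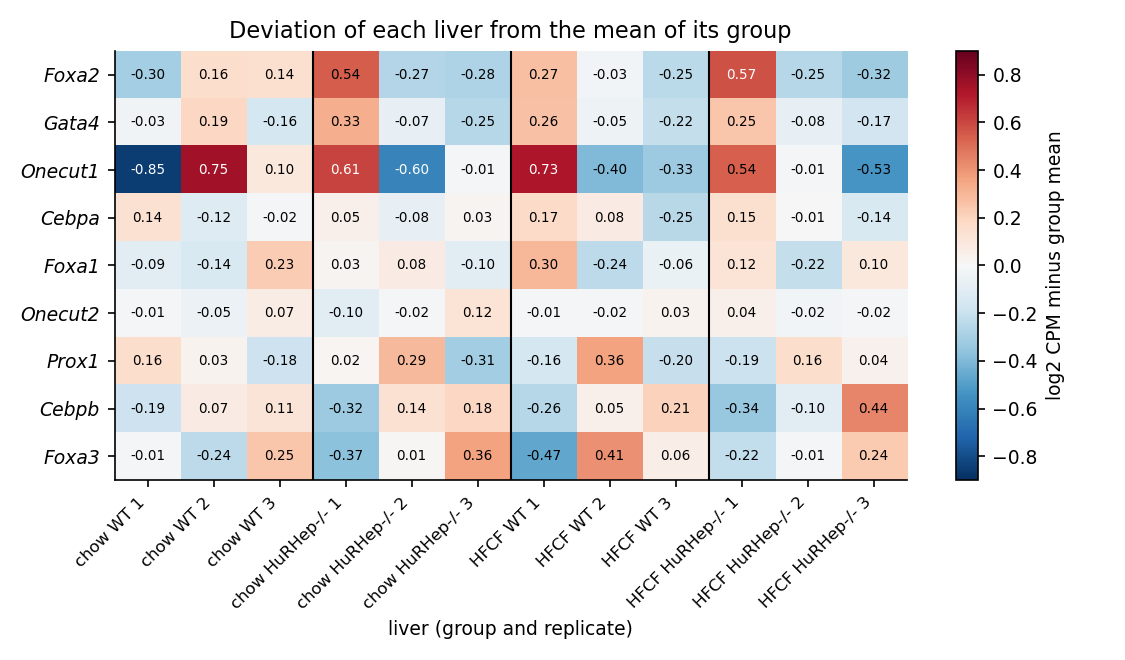
Log2 CPM of each member in each liver minus the mean of its group (colour and printed value), with vertical lines between the 4 groups. *Foxa2*, *Gata4* and *Onecut1* are high and *Cebpb* and *Foxa3* low in chow HuRHep-/- replicate 1, HFCF WT replicate 1 and HFCF HuRHep-/- replicate 1.

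Over the 12 libraries, the genes whose log2 CPM was most like that of each member, among 12008 genes with a mean of at least 1 CPM, were as follows. *Onecut2* was most like *Ttpal*, *Phf20l1* and *Tnrc6b* (Pearson's r 0.984, 0.978 and 0.972), and *Foxa3* most like *Asgr1*, *Ogfod2* and *Camk2n1* (0.972, 0.950 and 0.950). For *Cebpa* they were *Cdk19*, *S100pbp* and *D930016D06Rik* (0.968, 0.955 and 0.954), and for *Foxa2* they were *Cish*, *Rgs3* and *Amer1* (0.927, 0.910 and 0.861). *Gata4* was nearest to *B4galt1*, *Tmem177* and *Ssc4d* (0.933, 0.919 and 0.914), *Foxa1* to *Micu3*, *Gm42420* and *Gm42742* (0.925, 0.894 and 0.894) and *Onecut1* to *Gbp11*, *Atxn7l1* and *Pde12* (0.921, 0.899 and 0.863). *Cebpb* was closest to *Por*, *Hspa2* and *Mcrip2* (0.919, 0.886 and 0.885). The weakest likeness was that of *Prox1*, to *Smg8*, *Tec* and *Ap5z1* (0.855, 0.795 and 0.793). Each value is the highest of a search over 12008 genes in 12 libraries that share 4 groups, and is given as a description.

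The list of 25 other liver transcription factors, among them *Hnf4a* and *Ppara*, is given next to the background shares of 4.22% in chow and 6.84% in HFCF. In chow 0 of 25 were called by limma, with 6 at an unadjusted p under 0.05, and in HFCF 1 was called, *Atf5*, a stress-responsive bZIP factor that rose (0.68, standard error 0.094, adjusted p = 0.0189). Averaged over the diets 3 were called beside 19.2%, *Atf5* higher and *Esrra* and *Nr1i3* lower, the last pair named after their values were seen. With the diet in WT, 3 fell and 2 rose, beside 24.2% of all genes called, with a list median of -0.15 beside 0.01 over all genes. *Hnf4a*, the nuclear receptor central to hepatocyte gene expression, fell by 0.51 on the log2 scale (adjusted p = 0.00255) and *Zbtb20* by 0.56 (adjusted p = 0.00871), whereas *Ppara*, which drives fatty acid oxidation, rose by 0.59 (adjusted p = 0.000653) and *Atf5* by 0.44 (adjusted p = 0.0340). In livers labelled HuRHep-/-, 5 fell and 2 rose, beside 38.9%. Of the relatives and partners of the members (18 of 19 tested), none was called for genotype by limma on either diet (2 at an unadjusted p under 0.05 on each), 2 were called lower averaged over the diets beside 19.2% of all genes (*Hdac3* and *Cebpz*, named after their values were seen), 8 fell with the diet in WT and none rose, and 7 fell and 1 rose in livers labelled HuRHep-/-. In WT the smallest p values were those of *Cebpz* (-0.50, adjusted p = 0.000636) and *Foxp1* (-0.69, adjusted p = 0.00128).

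Known targets of the members gave mixed counts. Of 11 genes taken as FOXA and ONECUT targets, none was called in chow by limma (0 at an unadjusted p under 0.05), 2 fell with the genotype in HFCF beside 6.84% of all genes called, of which *Pfkfb1*, an enzyme of glycolytic control, had the smaller p (-0.42, adjusted p = 0.0235), and with the diet in WT 2 fell and 1 rose. In livers labelled HuRHep-/- 4 of the 11 fell with the diet and none rose (median -0.35). All diet counts of these target lists stand beside 24.2% of all genes called in WT and 38.9% in livers labelled HuRHep-/-. With the diet in WT, *Ttr*, the thyroid hormone carrier transthyretin, fell by 0.54 (adjusted p = 0.0187) and *Pfkfb1* rose by 0.37 (adjusted p = 0.0365). Of 9 metabolic C/EBP targets tested, none was called for genotype by limma (1 at an unadjusted p under 0.05 in chow and 0 in HFCF), and 5 fell with the diet in WT, with *Cps1* of the urea cycle at -0.82 (adjusted p = 0.00607), and 3 in livers labelled HuRHep-/-. Among 16 acute-phase C/EBP targets, 5 rose with the genotype in chow and none fell, beside 4.22% of all genes called, with a list median of 0.60 beside 0.01 over all genes. *Itih4* rose by 0.93 (adjusted p = 0.0131) and *Saa1*, a serum amyloid A gene, by 4.01 (adjusted p = 0.0211), while the estimate of *Cebpb* in the same livers was -0.38. In HFCF no acute-phase target was called for genotype by limma (median 0.38, 6 at an unadjusted p under 0.05), and averaged over the diets 9 of the 16 were called, all higher (median 0.71), beside 19.2% of all genes. Kupffer cell and macrophage markers had 14 of 14 higher estimates in livers labelled HuRHep-/- on both diets, none of them called within a diet by limma (6 in chow and 8 in HFCF at an unadjusted p under 0.05). Averaged over the diets, 8 of the 14 were called, all higher (median 0.54), beside 19.2% of all genes, and their part in the acute-phase result was not tested. With the diet in WT 3 rose and 3 fell, among them *Orm3* (3.24, adjusted p = 0.000474) and *Fgb* (-0.86, adjusted p = 0.00590), and in livers labelled HuRHep-/- 2 rose and 6 fell.

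The 3′ untranslated regions of the 9 differ widely. Their longest annotated forms run from 506 bases in *Cebpb* to 14356 in *Onecut2*, beside a median of 1085 over all genes. AUUUA was in 6 of the 9 (67.6% of all genes), absent from *Foxa3*, *Cebpa* and *Cebpb*, and the run of 7 U was in 6 (41.6%), absent from *Foxa2*, *Onecut1* and *Gata4*. The members called over the diets, *Onecut1* and *Onecut2*, both hold UAUUUAU, as does *Foxa2*, which was not called. *Foxa3* and *Cebpb* hold 7 matches to the U run each, and *Prox1* holds 16 AUUUA in 5185 bases without a called difference. With so few members no relation between motif and fold change can be read.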

How the data were processed

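Liver samples in 4 groups of 3 were sequenced as total RNA with a stranded kit. The authors mapped them with CLC Genomics Workbench against GRCm38.p6, counted reverse-strand reads and deposited whole-number read counts per gene, not normalized, with 1 table for each diet (20775 genes in chow, 22709 in HFCF). Large counts are written with commas as text, which were removed here, and no count model was applied. Groups and replicates were taken from the labels, which do not say that replicate numbers mark shared litters or days, nor that each sample is a separate mouse, so p-values measure the spread between these samples. All 12 libraries differed in their counts.

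Counts were scaled by TMM, turned into log2 CPM with a pseudocount of 0.5 and tested with limma 3.58.1 in R 4.3.3 (variance trend, Benjamini-Hochberg over all genes tested). A gene was tested if 3 or more libraries reached what 10 counts are worth at median depth and its total was 15 or more. All 9 members passed. Genotype was fitted on the 6 libraries of each diet. The average, the interaction and the diet contrasts were fitted on all 12. A fold change of a low gene is understated on this scale. Depth per library was 30071731 to 35949203 counts. Intervals are 95% intervals of the fit and cover these 3 livers per group. Lengths and positions come from GENCODE M21. The functions were tested on simulated counts.

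The members and gene lists were chosen with earlier results of these data known. The genes named are the members, *Elavl1*, genes overlapping a member, for each list up to 2 called genes that rose and 2 that fell with the smallest p (1 and 1 for lists under 12 genes) in chow, HFCF and diet in WT, and the 3 genes most like each member. Other settings tried were factors by RLE or upper quartile, filters on low counts, a pseudocount of 2, voom weights, the replicate number as a block, DEG criteria, leaving out each library and, for genotype, a fit on 12 libraries. Counting *Onecut1* with *Gm20649* was added after seeing the data.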

Additional observations from a re-analysis of the deposited data

How the results depend on the processing

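No paired design is given by the labels, and replicate numbers were not taken to pair the livers, since only 2 of 6 correlations exceeded 0.1 (correlation of same-numbered deviations -0.028, 0.112 and -0.016 in chow, 0.099, 0.21 and 0.089 in HFCF). As a hint from the data, 6 of 6 HFCF livers but 2 of 6 chow livers correlated best with their own number, and *Cebpb* was below its group mean in replicate 1 and above it in replicate 3 of all 4 groups. With the replicate number as a block, 1 member was called for genotype in HFCF (*Cebpb*, adjusted p = 0.0439 by limma), 2 for the average (*Cebpb*, adjusted p = 0.00437, and *Onecut2*, with *Onecut1* at adjusted p = 0.0532) and 3 for diet in livers labelled HuRHep-/- (*Foxa3* added, adjusted p = 0.0396), and 340 genes were called in chow against 571 and 1341 in HFCF against 978. Whether the numbers mark a shared origin in HFCF is not known.

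A fit on all 12 libraries called 1 member in chow (*Onecut2*, adjusted p = 0.0232), and 961 genes in chow and 1614 in HFCF. Upper-quartile factors, voom weights, DEG criteria or counting *Onecut1* with *Gm20649* each left 1 member called for the average, and DEG criteria left 1 for diet in WT and 1 in livers labelled HuRHep-/-. Leaving out 1 library gave 0 to 1 members called in chow, 1 to 2 for the average, 2 to 4 for diet in WT and 1 to 3 for diet in livers labelled HuRHep-/-. The *Onecut1* average also lost its call with upper-quartile factors (adjusted p = 0.0508) and voom weights (0.0560), and the *Foxa1* diet effect in WT with upper-quartile factors (0.0746). The cause of these changes was not tested.

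Some estimates that were not called changed sign. *Gata4* in HFCF was 0.0454 with upper-quartile factors, 0.0087 with at least 10 counts in every library and 0.0096 in the 12-library fit, and *Foxa2* for diet in livers labelled HuRHep-/- was 0.0015, 0.0783 and 0.0354 with RLE factors, upper-quartile factors and at least 10 counts. Without 1 library, *Cebpa* ranged from -0.0764 to 0.0446 in chow, -0.0183 to 0.1993 in HFCF and -0.017 to 0.0876 for the average, and *Prox1* from -0.1916 to 0.1096, -0.2305 to 0.0455 and -0.1575 to 0.0054. In HFCF *Foxa1* ranged from -0.183 to 0.0987, *Foxa2* from -0.2208 to 0.2225 and *Gata4* from -0.1255 to 0.1385, and for the average *Foxa3* from -0.0587 to 0.1601. For diet in WT *Onecut1* ranged from -0.7946 to 0.0089 and *Prox1* from -0.2531 to 0.0303. For diet in livers labelled HuRHep-/- *Cebpb* ranged from -0.1023 to 0.2927, *Foxa1* from -0.1541 to 0.0115, *Foxa2* from -0.2856 to 0.2661 and *Prox1* from -0.2937 to 0.0079. For the interaction *Cebpb* ranged from -0.2601 to 0.1353 and *Prox1* from -0.2212 to 0.1152. None of these was called.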
